A study of Mus musculus with 2 samples.

Results

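Vascular endothelial growth factor (VEGF) signalling was described through 8 genes in single-cell counts of mouse glomeruli: the ligands Vegfa, Vegfb and Vegfc, the receptors Kdr, Flt1 and Flt4, and the co-receptors Nrp1 and Nrp2. They were taken by symbol, each matching 1 of the 31058 features counted, by a rule that uses no measured value. The samples were 2 healthy C57Bl/6 mice, of which the titles call 1 female and 1 male. Each mouse gave 1 library of total cells from kidney glomeruli. Both mice carried the genotype Pax2.rtTA;TetO.Cre;R26.Confetti, in which doxycycline switches on Cre in cells that express Pax2 and marks them with a Confetti reporter. Both had doxycycline at 19 days of age and were killed at 30 days. Each group is 1 library, so differences between them have no replicate check and were not tested. Intervals in brackets are 95% intervals that cover counting error only, of UMIs for levels and ratios and of cells for shares of cells. They treat the UMIs or cells of 1 library as independent and leave out spread between mice.

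In the glomerulus, podocytes make VEGF-A, which crosses the basement membrane to the fenestrated endothelium on its other side. There it binds VEGFR2, the product of Kdr and the main signalling receptor, while VEGFR1, the product of Flt1, binds VEGF-A tightly and largely holds it back, partly as a soluble form. VEGFR3, the product of Flt4, is best known as the VEGF-C receptor of lymphatic endothelium, and neuropilins present VEGF to these kinases and also bind class 3 semaphorins. Counts from the 3' end of transcripts do not separate the isoforms of Vegfa, or soluble from membrane-bound Flt1.

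The members lie apart in the genome (GRCm38, whole gene spans of the GENCODE M21 annotation). Vegfa is at chr17:46016993-46032369, Vegfb at chr19:6982473-6987651, Vegfc at chr8:54077606-54187096 and Nrp1 at chr8:128358604-128503363. Kdr is at chr5:75932827-75978458, Flt1 on the same chromosome at chr5:147561604-147726011, Flt4 at chr11:49609263-49652739 and Nrp2 at chr1:62703285-62818695. Counts are per gene, and whether intronic reads were included is not stated in the labels. Stretches of 240 bases, from 250 to 11 bases upstream of the RefSeq start, are shown for Vegfa, Kdr and Flt1. These genes are the ligand made by podocytes and the endothelial receptors that bind it. The stretches are from RefSeq promoter windows of GRCm38.p6, 5′ to 3′ on the gene's own strand, which is the minus strand for all of them. Capitals mark GC boxes (GGGCGG) and ETS cores (GGAAG) on either strand.
Vegfa (chr17:46032388-46032627): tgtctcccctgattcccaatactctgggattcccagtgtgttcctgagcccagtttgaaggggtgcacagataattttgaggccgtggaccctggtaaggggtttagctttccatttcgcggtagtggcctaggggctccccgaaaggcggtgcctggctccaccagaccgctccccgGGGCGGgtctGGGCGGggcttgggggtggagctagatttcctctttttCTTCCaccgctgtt
Kdr (chr5:75978466-75978705): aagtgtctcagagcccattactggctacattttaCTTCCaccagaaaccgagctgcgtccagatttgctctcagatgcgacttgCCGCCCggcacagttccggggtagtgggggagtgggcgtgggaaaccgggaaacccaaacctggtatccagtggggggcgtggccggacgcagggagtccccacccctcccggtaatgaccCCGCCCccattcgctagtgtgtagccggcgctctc
Flt1 (chr5:147726022-147726261): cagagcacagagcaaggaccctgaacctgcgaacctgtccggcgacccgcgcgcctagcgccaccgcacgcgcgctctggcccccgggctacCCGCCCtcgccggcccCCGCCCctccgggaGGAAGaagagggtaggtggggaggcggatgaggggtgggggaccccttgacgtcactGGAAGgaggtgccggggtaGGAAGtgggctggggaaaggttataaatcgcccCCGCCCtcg
Vegfa had 2 GC boxes and 1 ETS core in its window, Kdr 2 and 1, and Flt1 3 of each. Over all 32851 promoter windows of 250 bases, 32.7% held a GC box and 64.1% an ETS core, so these matches are common. The hypoxia response core, searched only as the exact string ACGTG on either strand, was in 16.6% of all windows and in none of the windows shown. A second RefSeq window of Vegfa, not shown, held 1 match. Of its 250 bases, 218 lay in exons of the gene. A match is a description of the letters and no evidence of binding.

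The titles and the sex-linked genes of the libraries did not match. CPM are UMI counts scaled to a common total per library or class sum. For Xist they were 0.682 in the library labelled female, against 1593 in that labelled male, while the Y-linked genes together stood at 214 and 0.0206 CPM. The labels are kept as given, and a direction between the libraries is one between labels. After filtering, 4909 cells remained under the female label and 4442 under the male label, with a median depth of 10672 and 9616 unique molecular identifiers (UMIs, the tags by which captured transcripts are counted). The libraries shared 10 cell barcodes. Cells were clustered without the members and pathway genes, and clusters were named X-like from marker genes. The library labelled female held 4074 podocyte-like, 75 parietal epithelial-like, 240 mesangial-like, 111 glomerular endothelial-like and 85 arterial endothelial-like cells, and the library labelled male 3664, 49, 176, 88 and 83. Of the markers fixed for each class, 12 of 12 podocyte, 9 of 12 parietal, 9 of 10 mesangial, 9 of 13 glomerular endothelial and 11 of 14 arterial endothelial markers were highest in their own class in both libraries. Gja5, an arterial connexin, was not among them: it stood at 25.9 CPM under the female label and 86.9 CPM under the male label in arterial endothelial-like cells, against up to 177 and 318 CPM in another class. In arterial endothelial-like cells the arterial markers summed to 4816 CPM under the female label and 4363 CPM under the male label. Podocyte markers summed to more in these cells, 7320 and 7064 CPM, as did glomerular endothelial markers, 5794 and 5780 CPM. The lists differ in length and in the level of their genes. Because clusters set the classes, all differences between classes are descriptions without a test.

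Vegfa, the main ligand of the family, was a podocyte transcript in these samples. UMIs of each class were summed per library, and in podocyte-like cells Vegfa stood at 1611 CPM (1600 to 1623) for the library labelled female, against 1596 CPM (1584 to 1609) for that labelled male. A Vegfa UMI was found in 4074 of 4074 podocyte-like cells under the female label and in 3663 of 3664 under the male label. The median podocyte-like cell held 17 Vegfa UMIs under the female label and 15 under the male label. When each cell was thinned to 3000 UMIs, 98.6% of podocyte-like cells in either library still held 1, against 11.7% of mesangial-like cells under the female label and 7.95% under the male label. The thinned share was 30.6% under the female label and 30.1% under the male label in arterial endothelial-like cells, 26.7% and 40.8% in parietal epithelial-like cells and 16.2% and 20.5% in glomerular endothelial-like cells. Podocyte-like cells were 83.0% of all cells under the female label and 82.5% under the male label, and held 95.5% of the Vegfa UMIs in each library.

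**Figure D1:**
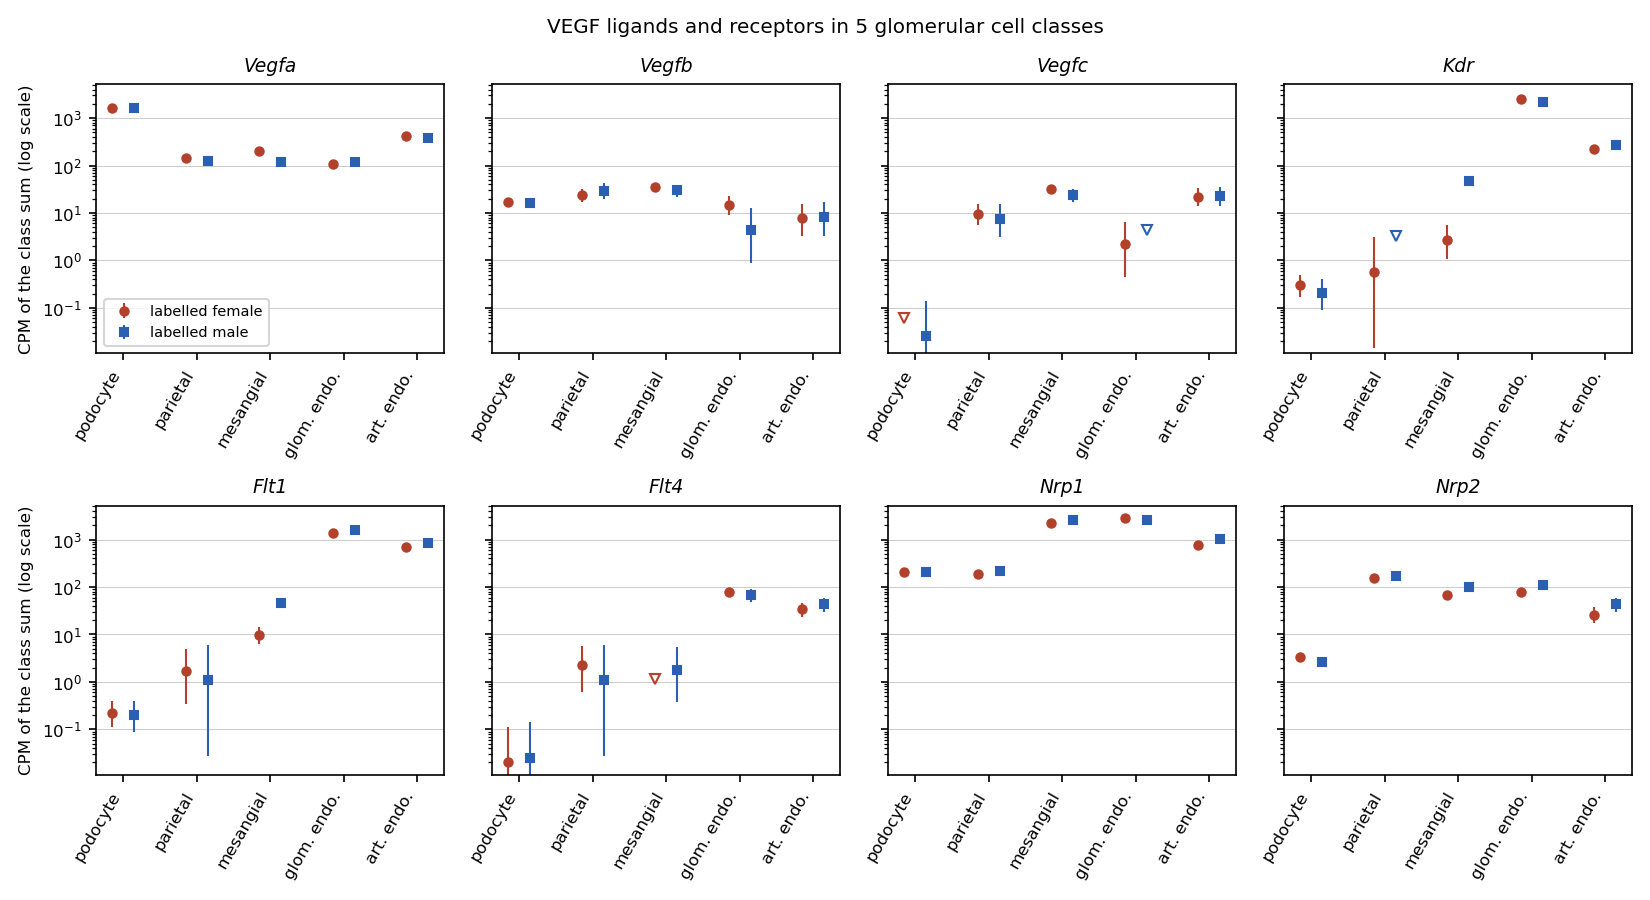
Level of each VEGF ligand, receptor and co-receptor in 5 cell classes, as CPM of the class sum on a log axis, for the library labelled female (circles) and the library labelled male (squares). Bars are 95% Poisson intervals, and open triangles mark classes with 0 UMIs at the level that 3 UMIs would give; Vegfa is highest in podocyte-like cells, and Kdr, Flt1 and Flt4 in glomerular endothelial-like cells.

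Within podocyte-like cells the spread of Vegfa was small. Over the 8 podocyte-like clusters it ran between 1403 and 1695 CPM for the library labelled female, and between 1397 and 1727 CPM in the library labelled male, a 1.21-fold and 1.24-fold range. The lowest cluster in both libraries was cluster 6, led by Loxl2, Pla2g7 and Fgl2, at 1403 CPM (1359 to 1447) under the female label and 1397 CPM (1360 to 1435) under the male label. The highest was cluster 7, led by Matn4, Myl7 and Ier2, in the library labelled female, and cluster 2, led by Atf3, Ifrd1 and Tnfaip3, in that labelled male. The early-response genes Fos, Jun, Egr1, Atf3 and Nr4a1 summed to 31270 CPM under the female label and 30254 CPM under the male label in cluster 2 and to 2674 and 2786 CPM in cluster 6. They were lowest in cluster 3, led by Hbb-bs, at 783 CPM under the female label and 1054 CPM under the male label, where Vegfa stood at 1571 CPM in both libraries. Clusters 2, 7, 1 and 5, the 4 with the most early-gene RNA in each library, were also the 4 highest in Vegfa in each. They stood between 1640 and 1695 CPM of Vegfa under the female label and between 1690 and 1727 CPM under the male label, and the others at up to 1618 and 1571 CPM. Cluster 0 had nearly as much early-gene RNA as cluster 5, at 6708 against 7006 CPM under the female label and 6987 against 7258 CPM under the male label. Its Vegfa stood at 1549 CPM in both libraries, below cluster 3, so the match depends on the cut between clusters 5 and 0. Under the female label cluster 2 was the lowest of the 4 in Vegfa. The part of the early-response genes in the level of Vegfa was not tested.

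**Figure D2:**
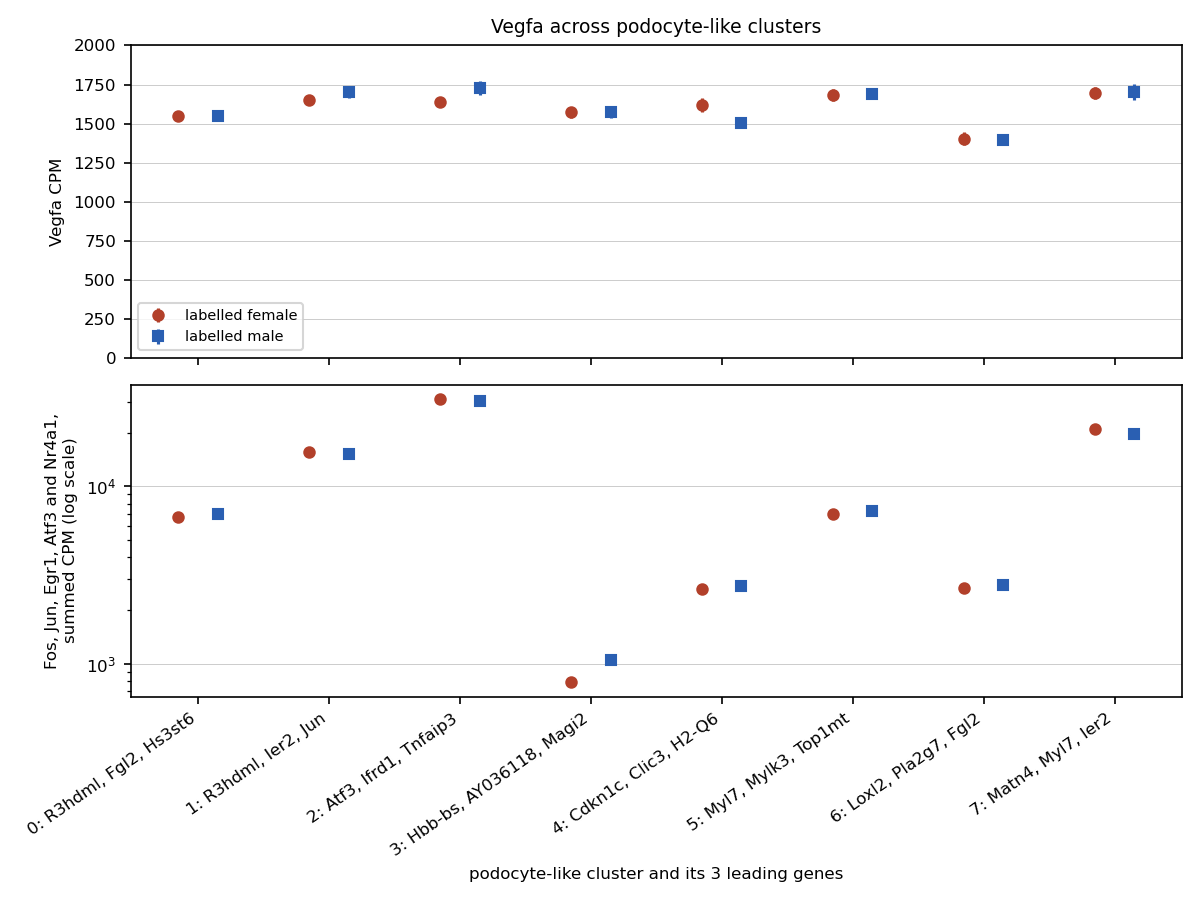
Vegfa in each of 8 podocyte-like clusters as CPM with 95% Poisson intervals (top, axis from 0), and the summed CPM of 5 early-response genes in the same clusters (bottom, log axis), for the library labelled female (circles) and the library labelled male (squares). Vegfa lies between 1397 and 1727 CPM while the early-response genes span 783 to 31270 CPM.

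Outside podocytes, Vegfa was found beside transcripts of Nphs1, which encodes the slit diaphragm protein nephrin and marks podocytes. Arterial endothelial-like cells were second in the order of the 5 classes, at 419 CPM (381 to 460) under the female label and 372 CPM (332 to 415) under the male label, which is 26.0% and 23.3% of the podocyte-like level. Nphs1 in the same cells stood at 23.4% of its podocyte-like level under the female label and 23.5% under the male label, close to the shares of Vegfa. Mesangial-like cells held Vegfa at 206 CPM under the female label and 117 CPM under the male label, or 12.8% and 7.34% of the podocyte-like level, beside Nphs1 at 14.1% and 5.88%. In parietal epithelial-like cells Vegfa was at 144 CPM under the female label and 127 CPM under the male label, or 8.94% and 7.94%, beside Nphs1 at 5.88% and 2.89%. Glomerular endothelial-like cells had 107 CPM under the female label and 120 CPM under the male label, or 6.64% and 7.51%, beside Nphs1 at 1.88% and 3.41%. Below the arterial class, no pair of neighbours in this order separated beyond its intervals in both libraries.

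Cells that held UMIs their class should lack were then left out: over 5 UMIs of podocyte markers, Nphs1 included, or 2 or more of the mesangial gene Pdgfrb outside mesangial-like cells. Under the female label this took 21 arterial endothelial-like, 31 mesangial-like, 23 parietal epithelial-like and 7 glomerular endothelial-like cells, and under the male label 18, 7, 17 and 1. Vegfa in mesangial-like cells was then 12.5 CPM under the female label and 18.6 CPM under the male label, or 0.778% and 1.16% of the podocyte-like level, beside Nphs1 at 0.395% and 0.543%. In arterial endothelial-like cells it was 66.2 CPM under the female label and 68.7 CPM under the male label, from 44 and 39 UMIs, or 4.11% and 4.31%, beside Nphs1 at 0.198% and 0.241%. Glomerular endothelial-like cells kept 51.0 CPM under the female label and 81.7 CPM under the male label, or 3.17% and 5.12%, beside Nphs1 at 0.525% and 0.811%. Parietal epithelial-like cells kept 67.4 CPM under the female label and 115 CPM under the male label, or 4.19% and 7.19%, beside Nphs1 at 1.01% and 1.67%. In these 4 classes the remaining Vegfa was thus a larger share of the podocyte-like level than the remaining Nphs1, which rested on 2 to 13 UMIs per class and library and whose level the filter itself lowers. Whether free podocyte RNA adds to these values was not tested.

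**Figure D3:**
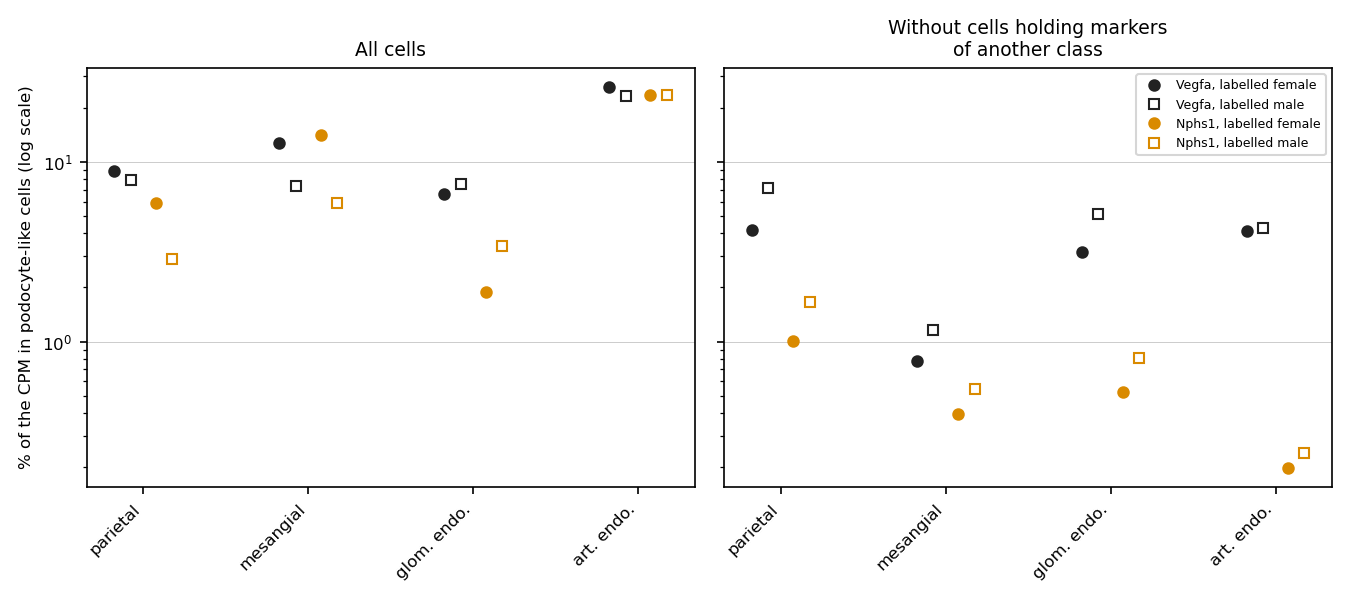
Vegfa and the podocyte marker Nphs1 in 4 classes as a percentage of their own CPM in podocyte-like cells (log axis), for all cells (left) and without cells that hold markers of another class (right). Filled circles are the library labelled female and open squares the library labelled male; with all cells Vegfa and Nphs1 lie close together in arterial endothelial-like cells, and Vegfa lies above Nphs1 there in the right panel.

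Vegfb, a ligand of VEGFR1, was low in each of the 5 classes. It stood at 34.7 CPM (27.9 to 42.6) under the female label and 29.8 CPM (22.0 to 39.3) under the male label in mesangial-like cells, the highest class in both libraries, and at 23.4 and 29.3 CPM in parietal epithelial-like cells. Podocyte-like cells had 17.4 CPM under the female label and 16.4 CPM under the male label, glomerular endothelial-like cells 14.7 and 4.28 CPM and arterial endothelial-like cells 7.68 and 8.11 CPM. The intervals of neighbouring classes overlapped in at least 1 library throughout this order. The value of 4.28 CPM rested on 3 UMIs.

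Vegfc, the ligand of VEGFR3, was highest in mesangial-like and arterial endothelial-like cells and at or near 0 in podocyte-like cells. Mesangial-like cells held 31.6 CPM (25.2 to 39.2) under the female label and 23.7 CPM (16.8 to 32.4) under the male label, with a UMI in 61 of 240 and 28 of 176 cells. Arterial endothelial-like cells held 22.1 CPM (14.0 to 33.1) under the female label and 23.2 CPM (14.2 to 35.8) under the male label, and 14 of the 23 UMIs under the female label lay in 1 cell. Parietal epithelial-like cells had 9.45 CPM under the female label and 7.59 CPM under the male label. Podocyte-like cells had 0 UMIs under the female label and 1 under the male label, and a count of 0 among 49905281 UMIs allows up to 0.0601 CPM. In glomerular endothelial-like cells 3 UMIs were counted under the female label and 0 under the male label, and the 0 allows up to 4.28 CPM.

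Kdr, the receptor through which VEGF-A chiefly signals, was highest in glomerular endothelial-like cells. It stood there at 2523 CPM (2440 to 2609) under the female label and 2230 CPM (2120 to 2343) under the male label, and each of the 111 and 88 cells held at least 1 UMI, with medians of 23 and 14.5 UMIs. A single cell of the library labelled female held 298 of the 3441 UMIs. Arterial endothelial-like cells held 228 CPM (200 to 259) under the female label and 271 CPM (238 to 308) under the male label, with a median of 1 UMI per cell in each library. Podocyte-like cells, which should lack the receptor, had a UMI in 0.344% of cells under the female label and 0.218% under the male label, at median depths of 10723.5 and 9701.5 UMIs. Their level was 0.301 CPM under the female label and 0.204 CPM under the male label. The median depth of glomerular endothelial-like cells was 7904 UMIs under the female label and 6434.5 under the male label. Parietal epithelial-like cells had 1 Kdr UMI under the female label and 0 under the male label.

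Flt1, the VEGF-binding receptor that limits signalling, was shared more evenly by the endothelial classes. It stood at 1400 CPM (1338 to 1464) under the female label and 1569 CPM (1477 to 1664) under the male label in glomerular endothelial-like cells. Arterial endothelial-like cells had 709 CPM (659 to 762) under the female label and 846 CPM (786 to 910) under the male label, with medians of 8 and 7 UMIs per cell. Podocyte-like cells had 0.220 CPM under the female label and 0.204 CPM under the male label. Flt4, the VEGF-C receptor, followed the same order at lower counts, with 77.0 CPM (63.0 to 93.2) under the female label and 67.1 CPM (49.3 to 89.2) under the male label in glomerular endothelial-like cells and 33.6 CPM (23.4 to 46.7) and 42.9 CPM (30.2 to 59.1) in arterial endothelial-like cells. In the library labelled male these intervals overlapped. It was detected in 60 of 111 glomerular endothelial-like cells under the female label and 30 of 88 under the male label, or 15.3% and 15.9% after thinning, whereas podocyte-like cells held 1 Flt4 UMI per library.

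Mesangial-like cells had few receptor UMIs, and those of the library labelled male lay mostly in single cells. Kdr stood at 2.67 CPM under the female label and 46.1 CPM under the male label, from 7 and 76 UMIs, and 49 of the 76 were in 1 cell. Flt1 stood at 9.53 CPM under the female label and 45.5 CPM under the male label, from 25 and 75 UMIs, and 40 of the 75 were in 1 cell. Leaving out cells with 2 or more UMIs of the endothelial genes Cdh5 and Pecam1 removed 0 mesangial-like cells under the female label and 2 under the male label, and left Kdr at 2.67 and 8.81 CPM and Flt1 at 9.53 and 15.7 CPM. This filter was chosen after the values were seen.

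Kdr and Flt1 were held together by all 111 glomerular endothelial-like cells under the female label and all 88 under the male label. After thinning to 3000 UMIs the share was 93.7% (87.4 to 97.4) under the female label and 92.0% (84.3 to 96.7) under the male label. In arterial endothelial-like cells it was 57.6% under the female label and 57.8% under the male label without thinning, and 25.9% (17.0 to 36.5) and 26.5% (17.4 to 37.3) after thinning. Among thinned arterial endothelial-like cells, Flt1 was seen in 80.0% under the female label and 85.5% under the male label, and Kdr in 30.6% and 31.3%. Most arterial endothelial-like cells thus held Flt1 without a Kdr UMI at equal depth.

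Nrp1, the co-receptor that joins VEGF-A to VEGFR2, was high in both glomerular endothelial-like and mesangial-like cells. It stood at 2820 CPM (2732 to 2911) under the female label and 2565 CPM (2448 to 2686) under the male label in glomerular endothelial-like cells and at 2242 CPM (2185 to 2300) and 2579 CPM (2503 to 2658) in mesangial-like cells. The highest class was thus glomerular endothelial-like in the library labelled female and mesangial-like in that labelled male, where the intervals overlapped. All mesangial-like cells held a UMI, with medians of 22 under the female label and 20 under the male label. Arterial endothelial-like cells had 755 CPM under the female label and 1021 CPM under the male label. Podocyte-like cells had 204 CPM under the female label and 205 CPM under the male label and parietal epithelial-like cells 189 and 222 CPM, which did not separate. Podocyte-like cells, the most numerous, nevertheless held the most Nrp1 UMIs, 10166 under the female label and 8039 under the male label.

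Nrp2, the co-receptor for VEGF-C and for semaphorins, was highest in parietal epithelial-like cells, at 158 CPM (141 to 178) under the female label and 173 CPM (148 to 202) under the male label. It was found in 58 of 75 of these cells under the female label and 38 of 49 under the male label. Glomerular endothelial-like cells had 79.9 CPM under the female label and 108 CPM under the male label and mesangial-like cells 67.8 and 99.0 CPM, and these classes did not separate. Arterial endothelial-like cells had 25.9 CPM under the female label and 42.9 CPM under the male label and podocyte-like cells 3.35 and 2.67 CPM. Without cells holding markers of another class, the parietal epithelial-like level was 148 CPM under the female label and 201 CPM under the male label.

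Between the endothelial classes, the receptors differed by gene. In glomerular over arterial endothelial-like cells the CPM ratio of Kdr was 11.1 (9.69 to 12.7) in the library labelled female and 8.22 (7.16 to 9.47) in the library labelled male. That of Flt1 was 1.97 (1.81 to 2.15) under the female label and 1.85 (1.69 to 2.04) under the male label, and that of Flt4 was 2.29 (1.55 to 3.46) and 1.56 (0.996 to 2.48). Nrp1 had ratios of 3.73 (3.46 to 4.04) under the female label and 2.51 (2.32 to 2.73) under the male label and Nrp2 of 3.09 (2.01 to 4.89) and 2.53 (1.69 to 3.86). Vegfa had ratios of 0.255 (0.210 to 0.309) under the female label and 0.322 (0.25 to 0.411) under the male label. Of 7 members at 20 CPM or more, Kdr, Nrp1 and Nrp2 were higher by 2-fold or more in both libraries, where 5.96% of 7753 genes were, and Vegfa and Vegfc lower, where also 5.96% were. Over 11 other settings the ratio of Kdr ran between 10.2 and 28.8 under the female label and between 7.09 and 15.4 under the male label, highest in both with classes taken from each cell's own marker score. The classes were made by clustering, so these shares are context and not a test.

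**Figure D4:**
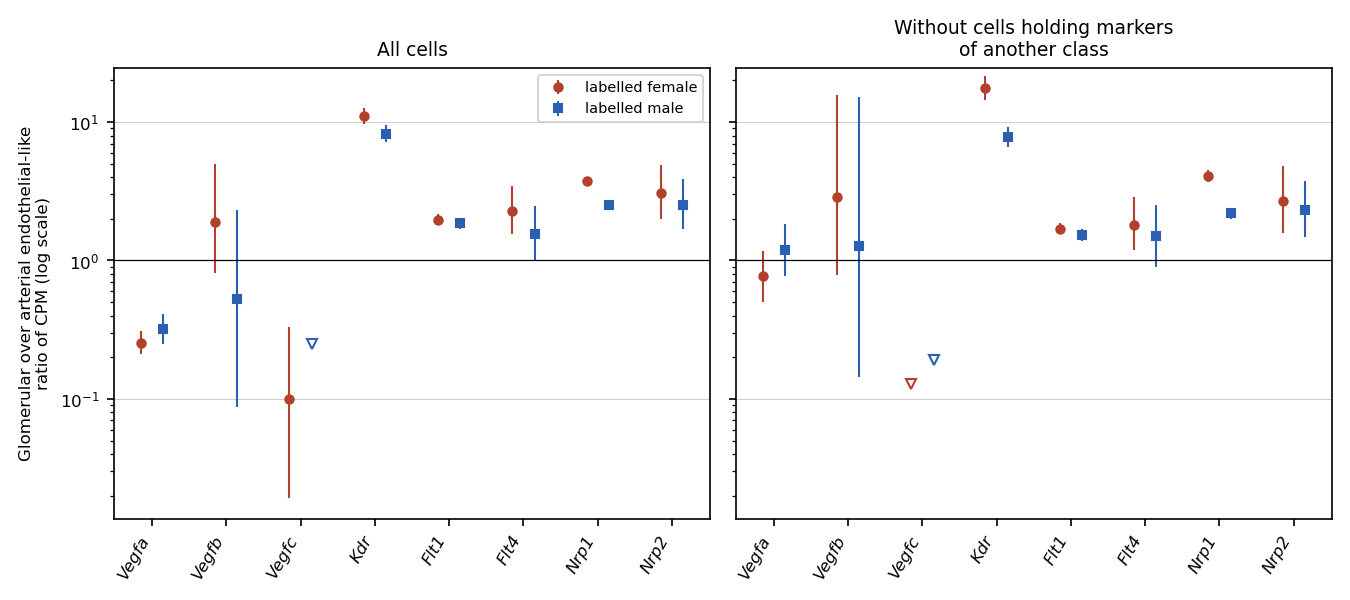
Ratio of CPM in glomerular over arterial endothelial-like cells for each member (log axis, line at 1), in the library labelled female (circles) and the library labelled male (squares), for all cells (left) and without cells that hold markers of another class (right). Bars are 95% conditional binomial intervals, and open triangles mark the upper limit where glomerular endothelial-like cells had 0 UMIs; Kdr has the highest ratio in each panel, and Vegfa moves to about 1 in the right panel.

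The lower Vegfa of the glomerular class did not hold without cells that carry markers of another class: the ratio was then 0.770 (0.505 to 1.18) under the female label and 1.19 (0.774 to 1.84) under the male label. The ratios of Kdr were 17.5 (14.4 to 21.4) under the female label and 7.77 (6.60 to 9.19) under the male label in those cells, of Flt1 1.70 and 1.52, of Nrp1 4.09 and 2.20 and of Nrp2 2.7 and 2.31. Vegfc had 0 UMIs in glomerular endothelial-like cells of either library then, against 31.6 CPM under the female label and 31.7 CPM under the male label in arterial endothelial-like cells.

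Between the libraries, Vegfa and Nrp1 had ratios near 1 in podocyte-like cells. Ratios divide the library labelled female by that labelled male. The ratio was 1.01 (0.999 to 1.02) for Vegfa and 0.995 (0.966 to 1.02) for Nrp1. Of these 2 members at 20 CPM or more, 0 passed 1.5-fold, where 1.59% of 6159 genes did. The other members were below 20 CPM there, and among them Kdr had a ratio of 1.48 (0.587 to 4.02) and Nrp2 of 1.25 (0.975 to 1.61). In parietal epithelial-like cells 0 of 4 passed, where 12.1% of 7374 genes did, and in glomerular endothelial-like cells 0 of 6, where 18.1% of 7048 genes did. Without cells holding markers of another class, 2 members passed in each of these classes. For the cells kept, the share of all genes past 1.5-fold is not given, so these counts describe the members only. In parietal epithelial-like cells the ratio of Vegfa was then 0.588 (0.402 to 0.858), instead of 1.14 (0.909 to 1.42), and that of Vegfb 0.664 (0.330 to 1.34). In glomerular endothelial-like cells that of Vegfa was 0.624 (0.418 to 0.931), instead of 0.893 (0.678 to 1.18), and that of Nrp2 0.664 (0.474 to 0.930). With all cells, Kdr and Flt1 had ratios of 1.13 (1.07 to 1.20) and 0.892 (0.828 to 0.962) in glomerular endothelial-like cells, past counting error but under 1.5-fold. The median log2 ratio of the members was 0.00 in podocyte-like, -0.17 in parietal epithelial-like, -0.20 in mesangial-like, -0.01 in glomerular endothelial-like and -0.25 in arterial endothelial-like cells, and that of all genes tested was between -0.01 and 0.02.

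Arterial endothelial-like cells had 1 of 7 members past 1.5-fold, where 14.4% of 7092 genes were: Nrp2, with a ratio of 0.604 (0.354 to 1.02). Nrp1 had 0.740 (0.671 to 0.815) and Flt1 0.838 (0.756 to 0.930) in the same cells. With cells holding markers of another class left out, 3 members passed it, namely Kdr at 0.571 (0.444 to 0.732), Nrp1 at 0.633 (0.562 to 0.712) and Nrp2 at 0.569 (0.295 to 1.07). The share of all genes is not given for the cells kept. With all cells, mesangial-like cells had 3 of 7 members past 1.5-fold, where 9.92% of 7107 genes were. Kdr had a ratio of 0.0578 (0.0225 to 0.125) and Flt1 of 0.209 (0.127 to 0.333), the UMIs of which lay mostly in single cells as given above. With classes taken from each cell's own marker score, the log2 ratios of Kdr and Flt1 were 2.08 and 1.36, instead of -2.15 and -1.51. After thinning, 0 members at 20 CPM or more passed 1.5-fold. Kdr was then down to 4 UMIs under the female label and 8 under the male label, and Flt1 to 4 and 10. Both were below 20 CPM and not counted, so that count says nothing on their ratios at equal depth. Vegfa had a ratio of 1.76 (1.49 to 2.08), beside Nphs1 at 214 CPM under the female label and 86.2 CPM under the male label in the same cells. Without cells holding markers of another class, the Vegfa ratio was 0.675 (0.378 to 1.20), from 25 UMIs under the female label and 28 UMIs under the male label.

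**Figure D5:**
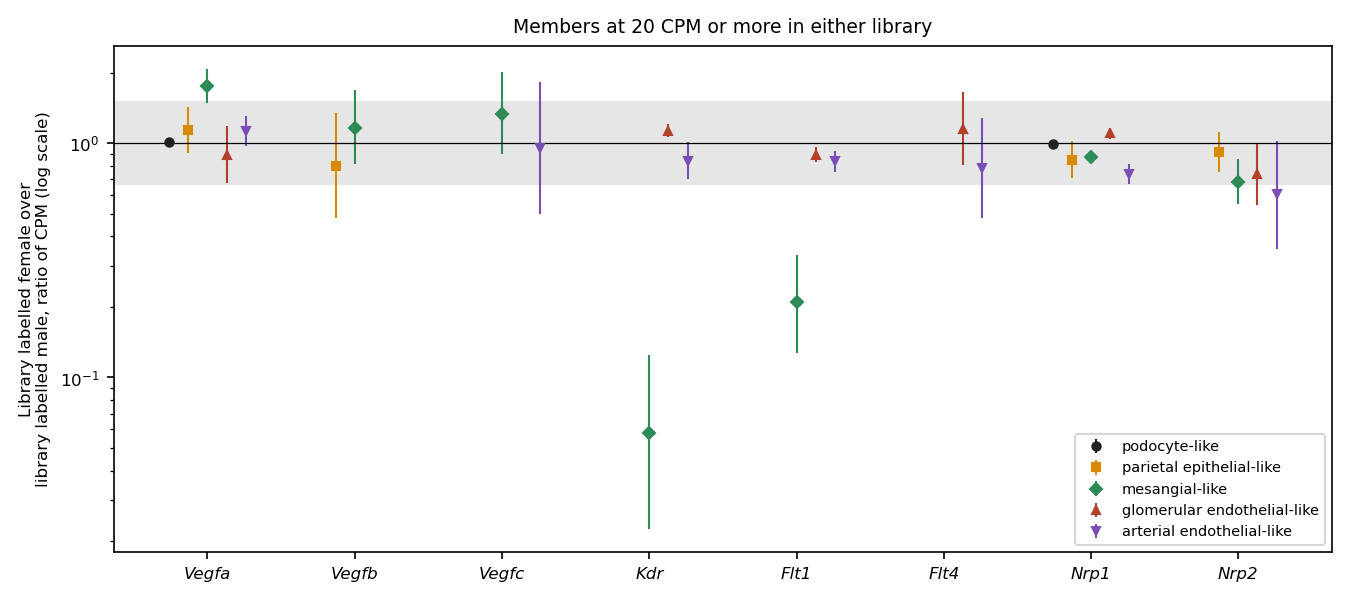
CPM of the library labelled female divided by that of the library labelled male, by cell class (log axis), for members at 20 CPM or more. Bars are 95% conditional binomial intervals and the grey band is 1.5-fold either way; the members outside the band are Vegfa, Kdr and Flt1 in mesangial-like cells and Nrp2 in arterial endothelial-like cells.

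Genes around the pathway were listed by role, 68 in all, and 60 reached a mean of 20 CPM over both libraries in at least 1 class. The class with the highest mean level was glomerular endothelial-like for 16, mesangial-like for 14, podocyte-like for 11, arterial endothelial-like for 11 and parietal epithelial-like for 8. The highest class was the same in both libraries for 47 of the 60. No such tally over all genes is given, so these counts describe the list only. The other ligands, Vegfd and Pgf, were both highest in mesangial-like cells, Vegfd at 154 CPM under the female label and 179 CPM under the male label and Pgf at 40.8 and 35.2 CPM. Ptprb, the endothelial phosphatase VE-PTP, stood at 1667 CPM under the female label and 1926 CPM under the male label in glomerular and 1517 and 1637 CPM in arterial endothelial-like cells. Sema3g, a class 3 semaphorin, was highest in podocyte-like cells at 1744 CPM under the female label and 1700 CPM under the male label. Epas1, which encodes the hypoxia-inducible factor HIF-2α, stood at 1221 CPM under the female label and 1488 CPM under the male label in mesangial-like cells, 1018 and 1013 CPM in glomerular endothelial-like cells and 30.5 and 31.1 CPM in podocyte-like cells. Hspb1, a small heat shock protein, was highest in arterial endothelial-like cells at 951 CPM under the female label and 1097 CPM under the male label, and Ldha, a glycolytic enzyme, in glomerular endothelial-like cells at 265 and 227 CPM. Plvap, the protein of fenestral diaphragms, was highest in mesangial-like cells, at 358 CPM under the female label and 361 CPM under the male label, against 85.8 and 126 CPM in glomerular endothelial-like cells.

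Between the endothelial classes, 5 of 56 pathway genes at 20 CPM or more were at least 2-fold higher in glomerular endothelial-like cells in both libraries, namely Sema3f, Rcan1, Angpt2, Hlx and Dusp5. Ptprj, Sema3e, Sema3g and Esm1 were at least 2-fold lower. Over all 7753 genes 5.96% passed in each direction, so these counts were near the background. Once cells holding markers of another class were left out, 2 of the 5 stayed at least 2-fold higher in both libraries, Rcan1 and Hlx, and 3 of the 4 at least 2-fold lower, Ptprj, Sema3g and Esm1. Dusp5, Angpt2, Sema3f and Sema3e did not: the ratio of Dusp5 was then 0.864 (0.350 to 2.20) under the female label and 1.78 (0.767 to 4.47) under the male label, and that of Sema3f 1.97 (1.49 to 2.65) and 3.02 (2.07 to 4.50). The share of all genes in each direction is not given for the cells kept. With all cells, Hlx, a homeobox transcription factor, had ratios of 3.29 (2.0 to 5.65) under the female label and 3.26 (1.92 to 5.76) under the male label. Angpt2, a ligand of the receptor TIE2, stood at 33.7 CPM under the female label and 7.14 CPM under the male label in glomerular, and at 3.84 and 2.32 CPM in arterial endothelial-like cells, and its ratio between the libraries in the glomerular class was 4.73 (1.89 to 15.2). In mesangial-like cells it was at 175 CPM under the female label and 270 CPM under the male label, and Pdgfrb stood at 163 and 4.28 CPM in the same glomerular endothelial-like cells. Without cells holding markers of another class, Angpt2 was at 4.0 CPM under the female label and 7.43 CPM under the male label in glomerular endothelial-like cells.

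Between the libraries, 2 of 37 pathway genes passed 1.5-fold in podocyte-like cells, 6 of 44 in parietal epithelial-like, 9 of 48 in mesangial-like, 10 of 53 in glomerular endothelial-like and 6 of 51 in arterial endothelial-like cells. Over all genes tested the shares were 1.59%, 12.1%, 9.92%, 18.1% and 14.4% in the same order, so that the parietal epithelial-like and both endothelial counts were near the background. The podocyte-like pair was Hspb1, at 317 CPM under the female label and 169 CPM under the male label with a ratio of 1.87 (1.82 to 1.93), and Nr4a1, an early-response nuclear receptor, at 395 and 199 CPM with a ratio of 1.98 (1.93 to 2.04). Esm1, an endothelial proteoglycan induced by VEGF-A, stood at 4.40 CPM under the female label and 57.1 CPM under the male label in glomerular endothelial-like cells and at 29.7 and 131 CPM in arterial endothelial-like cells. Its ratio between the libraries was 0.0771 (0.0267 to 0.183) in the glomerular class, or 0.101 (0.0350 to 0.240) without cells holding markers of another class. In the arterial class it was 0.227 (0.147 to 0.341), or 0.254 (0.161 to 0.391) without such cells. Vegfd had 28 UMIs under the female label and 0 under the male label in glomerular endothelial-like cells, and 0 in either library without those cells. Sema3g in mesangial-like cells had a ratio of 2.51 (2.09 to 3.03), and 1.28 (0.663 to 2.54) without them. Adm, the vasodilator peptide adrenomedullin, had a ratio of 2.08 (1.59 to 2.75) in mesangial-like cells and 2.02 (1.51 to 2.72) without them.

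The genes most like each member were found over 10 sums, from the 5 classes that held 50 or more cells per library, with thick ascending limb-like in place of parietal epithelial-like cells. Likeness was Pearson's r of log2(CPM + 10) among 5618 genes. The sums share libraries and mixed RNA, so r is a description. Vegfa was closest to Dock5 (r = 0.997), Zfp385b and Arhgef18, and Kdr to Ncoa3 (0.994), Cyp4b1 and Ednrb. Flt1 was closest to Fabp4 (0.997), Arhgef3 and Pi16, and Flt4 to Pcdh17 (0.998), Prkch and Gda. Nrp1 was closest to Serpinh1 (0.992), Sh2b3 and Dennd6a, and Nrp2 to AU020206 (0.990), Nostrin and Adamts1. Vegfb was closest to Fth1 (0.979), Cmtm4 and Bicc1, and the genes close to Vegfc included Vcam1 (0.965) and Cst3.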

How the data were processed

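Cells from the glomeruli of 2 mice gave 1 droplet-based 10x 3' library each. The authors deposited these as unnormalized whole-number UMI counts for each gene and barcode. Cell Ranger 6.1.2, STAR 2.7.5a and the build mm10 are named in the submitters' processing notes without their roles. Not given in the sources used here are the barcode filter, annotation and strand setting. Groups follow the titles, and file names carry the opposite sex.

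A mitochondrial share over 20% removed 283 barcodes from the library labelled female and 504 from that labelled male, and fewer than 500 detected genes removed 112 and 145. Scrublet in scanpy 1.11.5 called 2 and 1 cells, under 0.5%, so it has not worked and doublets remain. Cells were reduced to 30 components of 2000 variable genes, without members, pathway genes, mitochondrial, reporter and sex-linked genes. Leiden clustering (leidenalg 0.10.2, resolution 1.0, 20 neighbours) gave 18 clusters. Names needed 3 or more markers, by a rule set after the clusters were seen, and 3 clusters stayed unnamed. Counts were summed per class and library as CPM. Log2 ratios used a prior of 10 CPM, and printed folds none. Intervals are exact Poisson, conditional binomial and Clopper-Pearson, at 95%. A count of 0 was read as allowing 3 counts. No test was possible with 1 library per group.

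Of 31053 Ensembl identifiers, 30934 were in GENCODE M21. Nrp2 overlaps the antisense gene Gm29083, which had 1 UMI in all. The text names all members, pathway genes whose ratio interval lay past 1.5-fold (at most 3 per class), the highest gene of each role and the 3 genes most like each member, except results not reported here because they are withheld. Pathway genes past 2-fold between the endothelial classes are also named, after their values were seen. Members and lists were chosen with earlier results of these data known. Alternatives covered cell filters, clustering, thinning, cells with foreign markers and thresholds, and 1 was added after seeing the data. Analyses ran in Python 3.11.15 with scipy 1.17.1. Ratio intervals were run on simulated Poisson counts, the model they are built on. That run leaves out spread between cells and mice, so it says nothing on how well the intervals cover it.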

Additional observations from a re-analysis of the deposited data

Results flagged for a closer look

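Of 31 pairs of classes in which a member reached 20 CPM in both classes of both libraries, 4 had ratios on opposite sides of 1 in the libraries, and the difference was not tested in any. Vegfa in parietal epithelial-like over mesangial-like cells had a ratio of 0.700 (0.601 to 0.813) in the library labelled female and 1.08 (0.853 to 1.37) in the library labelled male. Vegfa in mesangial-like over glomerular endothelial-like cells had ratios of 1.92 (1.60 to 2.32) under the female label and 0.977 (0.753 to 1.28) under the male label. Nrp1 in podocyte-like over parietal epithelial-like cells had ratios of 1.08 (0.967 to 1.20) under the female label and 0.921 (0.802 to 1.06) under the male label. Nrp1 in mesangial-like over glomerular endothelial-like cells had ratios of 0.795 (0.763 to 0.828) under the female label and 1.01 (0.951 to 1.06) under the male label. In each pair the interval of at least 1 library held 1. Without cells holding markers of another class, Vegfa was lower in mesangial-like than in parietal epithelial-like and glomerular endothelial-like cells in both libraries.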

How the results depend on the processing

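Over 12 other settings, Vegfa kept podocyte-like cells as its highest class, and Kdr, Flt1 and Flt4 glomerular endothelial-like cells, in both libraries. Vegfb kept its class in 12 settings for the library labelled female and 8 for that labelled male, Vegfc in 12 and 7, Nrp1 in 11 and 12 and Nrp2 in 11 and 10. At resolution 0.5 only 3 of the 5 classes were found, so parietal epithelial-like and arterial endothelial-like cells have no value there. Vegfa levels outside podocyte-like cells moved widely over the settings. They ran between 67.4 and 471 CPM under the female label and between 115 and 538 CPM under the male label in parietal epithelial-like cells, 12.5 to 285 and 17.4 to 335 CPM in mesangial-like cells, 51.0 to 342 and 80.8 to 469 CPM in glomerular endothelial-like cells and 66.2 to 620 and 68.7 to 397 CPM in arterial endothelial-like cells. Kdr ran between 1529 and 2869 CPM under the female label and between 1149 and 2257 CPM under the male label in glomerular endothelial-like cells, and between 68.4 and 247 and between 105 and 299 CPM in arterial endothelial-like cells.

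Counts of members past 1.5-fold between the libraries moved as follows. The share of all genes is given for the main settings only, so the other counts have no background beside them. In arterial endothelial-like cells (1 as reported) there were 3 at resolution 2.0, without the top 5% of cells by Scrublet score, with per-cell means, without cells holding foreign markers and with marker-score classes, 2 after thinning, and 0 at a fold of 2.0 or at 50 CPM. In glomerular endothelial-like cells (0 as reported) there was 1 at a mitochondrial limit of 10% or without the high Scrublet scores, and there were 2 after thinning or without cells holding foreign markers. In mesangial-like cells (3 as reported) there were 0 after thinning, and 1 at 50 CPM or without cells holding endothelial markers, the setting added after seeing the data. In these settings Kdr and Flt1 were below the level limit and so not counted, whatever their ratio. Nrp2 in arterial endothelial-like cells was likewise not counted at 50 CPM. In parietal epithelial-like cells (0 as reported) there were 2 without cells holding foreign markers. Of members lower by 2-fold in glomerular than arterial endothelial-like cells (2 as reported), 1 was left at resolution 2.0, after thinning, without cells holding foreign markers and with marker-score classes. At a fold of 1.5, 5 members were higher instead of 3. In mesangial-like cells the log2 ratio of Vegfa (0.76 as reported) was -0.34 without cells holding foreign markers and -0.23 with marker-score classes, and those of Kdr (-2.15) and Flt1 (-1.51) were 2.08 and 1.36 with marker-score classes. The cause was not tested. No paired analysis was possible because each group has 1 library. Classes other than podocyte-like held 49 to 240 cells per library, which limits their precision.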

Other observations

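Cells outside the 5 classes also held members. Thick ascending limb-like cells, which also held Slc12a3 of the distal tubule, had Vegfa at 438 CPM under the female label and 427 CPM under the male label, 27.2% and 26.8% of the podocyte-like level, beside Nphs1 at 22.7% and 18.7%. Their Vegfb stood at 63.6 CPM (50.2 to 79.5) under the female label and 91.1 CPM (77.6 to 106) under the male label, above the level in each of the 5 classes. Smooth muscle or renin-like cells had Nrp1 at 883 CPM under the female label and 954 CPM under the male label and Nrp2 at 4.79 and 7.62 CPM, from 2 and 4 UMIs. An unnamed cluster led by Cst12, Igfbp6 and Dkk3 had Vegfa at 667 CPM under the female label and 732 CPM under the male label, 41.4% and 45.8% of the podocyte-like level, beside Nphs1 at 64.8% and 65.7%. An unnamed cluster led by the cell cycle genes Cenpf, Prc1 and Top2a held 23 cells under the female label and 11 under the male label, and had Kdr at 546 and 445 CPM, Flt1 at 302 and 238 CPM and Nrp1 at 1283 and 1594 CPM. A Kdr UMI was found in 11 of the 23 cells under the female label and 6 of the 11 under the male label, beside Cdh5 at 443 and 265 CPM and Pdgfrb at 316 and 731 CPM.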
